A study of Mus musculus with 16 samples.

Results

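The core autophagy machinery is the set of proteins that builds the autophagosome, a membrane sac that closes around cytoplasm and delivers it to the lysosome. Here it is 40 genes listed by their known roles, each with 10 or more counts in at least 4 of the 16 libraries, out of 47593 genes in the count table. The rule used no difference between groups. Cortical RNA of 5xFAD mice was sequenced in 4 groups of 4 libraries each, which are females and males on vehicle or on rapamycin. Every mouse carried the same transgenes, among them human APP with the Swedish, Florida and London mutations. They are heterozygous on a mixed C57BL/6-SJL background and driven by the neuron-specific Thy1 promoter. Vehicle mice were fed standard chow with the microencapsulation carrier alone and rapamycin mice chow with microencapsulated rapamycin, in both cases from 2 to 5 months of age. Mice without the transgenes were not analysed here, so amyloid is common to all 4 groups. The study describes the sequenced cortices as pooled in one place and gives 4 mice per group in another, so the p-values measure the spread between libraries, whatever lies behind each.

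Autophagy starts when the ULK kinase complex is released from inhibition by mTORC1, the kinase complex that rapamycin blocks. A class III phosphatidylinositol 3-kinase complex then marks a patch of membrane with a lipid signal, and ATG9A vesicles, ATG2 lipid transfer proteins and WIPI adaptors let that membrane grow. Ubiquitin-like conjugation reactions fix the Atg8 proteins, LC3 and the GABARAPs, to the growing membrane, where they catch cargo receptors such as p62. Most of this control acts on proteins through phosphorylation, lipidation and degradation, and messenger RNA levels measure none of these steps. In the brain, neurons and microglia both depend on the pathway, and the accumulation of autophagic vacuoles in swollen neurites is a known feature of amyloid pathology.

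A slower control acts on transcription. TFEB and TFE3, which mTORC1 keeps in the cytoplasm, bind the palindromic CLEAR element and the shorter E-box CACGTG inside it, and FOXO factors bind GTAAACA. These motifs were searched on both strands in RefSeq promoters of GRCm38.p6, each window running from 250 bases before an annotated start and 300 bases long. An annotated start can lie inside a gene, as those of Atg7, Wdr45, Atg9a, Gabarap and some other members do. Such a window does not show the sequence before the gene's first exon in the count table. RefSeq windows matched 33 of the 40 genes, with 40 windows in all, and Atg12, Atg16l1, Becn1, Map1lc3a, Pik3c3, Rb1cc1 and Wdr45b had no entry. CACGTG lay in windows of 4 of the 33 genes (12.1%), namely Atg3, Atg5, Atg7 and Atg14, and in those of 8.09% of all 27025 genes. The full CLEAR element lay in 0 of the 40 windows and in 0.326% of all 32851, and GTAAACA in 0 of the 40 and in 3.65% of all. Of the 6 matched genes that passed the test for rapamycin, described further on, 0 had any of the 3 motifs. The stretches below run from 150 bases before the start and are 160 bases long. The first set is shown because these 4 windows hold CACGTG, which stands in capitals. In Atg3 it begins 94 and 71 bases before the annotated start, in Atg7 132 bases, in Atg5 14 bases and in Atg14 1 base before it. The Atg7 window (chr6:114670846-114671145) lies inside the gene, whose exons in the count table begin at 114643097.
Atg3 (chr16:45158679-45158838, plus strand): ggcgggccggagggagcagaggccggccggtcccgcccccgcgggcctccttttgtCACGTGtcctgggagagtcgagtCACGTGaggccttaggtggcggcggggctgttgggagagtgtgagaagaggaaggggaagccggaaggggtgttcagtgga
Atg5 (chr10:44268189-44268348, plus strand): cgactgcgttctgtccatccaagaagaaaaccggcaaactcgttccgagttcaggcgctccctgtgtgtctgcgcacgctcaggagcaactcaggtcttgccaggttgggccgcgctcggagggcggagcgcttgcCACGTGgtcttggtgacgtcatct
Atg7 (chr6:114670946-114671105, plus strand): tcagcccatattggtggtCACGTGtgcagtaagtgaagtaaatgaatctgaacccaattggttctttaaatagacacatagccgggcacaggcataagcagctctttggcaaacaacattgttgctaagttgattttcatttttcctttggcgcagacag
Atg14 (chr14:47568425-47568584, minus strand): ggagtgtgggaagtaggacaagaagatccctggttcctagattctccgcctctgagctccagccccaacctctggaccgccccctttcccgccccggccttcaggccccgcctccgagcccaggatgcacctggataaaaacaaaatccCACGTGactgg
The second set is shown because these 6 genes passed the test for rapamycin, and no motif was found in them to mark. The Wdr45 stretch lies inside the gene, whose exons in the count table begin at 7714333. Those of Gabarap and Atg9a also lie inside their genes, whose exons begin at 69991143 and, on the minus strand, at 75192196.
Gabarap (chr11:69991220-69991379, plus strand): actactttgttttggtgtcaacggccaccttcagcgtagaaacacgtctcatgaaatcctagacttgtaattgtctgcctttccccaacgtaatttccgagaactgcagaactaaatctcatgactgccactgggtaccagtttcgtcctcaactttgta
Wdr45 (chrX:7722777-7722936, plus strand): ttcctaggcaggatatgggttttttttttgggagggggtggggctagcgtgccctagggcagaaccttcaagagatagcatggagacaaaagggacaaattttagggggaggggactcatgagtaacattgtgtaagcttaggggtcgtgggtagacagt
Atg9a (chr1:75192001-75192160, minus strand): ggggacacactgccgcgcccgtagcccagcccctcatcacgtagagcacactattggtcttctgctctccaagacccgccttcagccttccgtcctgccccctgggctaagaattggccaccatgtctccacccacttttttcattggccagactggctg
Atg2b (chr12:105685232-105685391, minus strand): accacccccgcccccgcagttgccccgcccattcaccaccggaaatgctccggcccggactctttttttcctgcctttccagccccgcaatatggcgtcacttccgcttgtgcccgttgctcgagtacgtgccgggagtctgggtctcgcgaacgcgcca
Zfyve1 (chr12:83597213-83597372, minus strand): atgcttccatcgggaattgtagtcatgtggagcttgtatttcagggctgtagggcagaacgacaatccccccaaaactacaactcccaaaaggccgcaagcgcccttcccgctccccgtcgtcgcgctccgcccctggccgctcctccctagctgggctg
Pik3r4 (chr9:105642845-105643004, plus strand): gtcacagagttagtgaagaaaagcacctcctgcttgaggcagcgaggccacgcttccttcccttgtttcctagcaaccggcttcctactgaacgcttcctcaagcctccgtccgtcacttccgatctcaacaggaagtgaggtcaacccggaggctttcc

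Each library held between 16393501 and 20593089 counted read pairs, and the member with the fewest had 61 or more in every library. Per exon length (RPKM, which divides CPM by exon length in kilobases), the 40 genes ran from 2.06 to 292, with a median of 12.1 against 4.54 for all 16553 genes tested. They also varied less than most genes around their group and batch means, with a median residual SD of 0.131 on the log2 CPM scale (CPM, counts scaled to a common library size) against 0.244 over all genes. Batch 2 in the labels, whose nature they do not give, held 5 libraries (replicate 4 of every group and female rapamycin 5), and batch 1 held the other 11. The library labelled male rapamycin 4 had 9935 counts of Xist, the RNA of the inactive X chromosome, and 0 counts of 4 Y-linked genes. The other males had 1 to 17 Xist counts and 1915 to 2231 Y-linked counts, and the females 8678 to 23541 Xist counts and at most 8 Y-linked counts. This library therefore goes against its label, and results are given with and without it. The 3 libraries female rapamycin 1, female rapamycin 2 and male rapamycin 2 stood apart as well: mitochondrial genes took 6.88 to 6.99% of their read pairs, against 2.64 to 5.47% in the other 13.

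The Atg8 family was by far the most abundant group, with 51.4% of the summed RPKM of the 40 genes (45.9 to 56.6% over the libraries) from 5 genes. Gabarapl1 led at a mean of 292 RPKM, followed by Map1lc3a at 160, Gabarap at 69.0, Gabarapl2 at 42.5 and Map1lc3b at 32.2. LC3B, the product of Map1lc3b, is the usual protein marker of autophagosomes, and its messenger was the lowest of the 5 per exon length. Its summed exons are the longest of the 5 (7517 bases), and by CPM, which is not divided by length, it was second at 242. Cargo receptors took a further 18.7%, mostly through Sqstm1 at 154 RPKM, which encodes p62. Nbr1, a related receptor, had 23.3 RPKM, Calcoco1 19.1, Tax1bp1 12.8 and Optn, the receptor optineurin, 5.52.

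The remaining 5 groups were expressed at lower and similar levels. The initiation complex ran from 5.86 RPKM for Rb1cc1, which encodes the scaffold FIP200, to 27.0 for Atg101. Genes of membrane supply and lipid transfer ran from 4.78 (Wipi1) to 27.9 (Vmp1), and the class III PI3K complex from 4.21 (Pik3r4) to 12.2 (Ambra1). Within the conjugation machinery Atg12 was highest at 25.4 and Atg7, the E1-like enzyme, lowest at 5.21. The 4 ATG4 proteases, which trim the Atg8 proteins and release them again, ran from 2.06 for Atg4a to 12.1 for Atg4c. Neighbours in this order often lay within the spread of the vehicle libraries, such as Atg9a at 14 ± 1.01 (SD, n = 8) and Atg3 at 14 ± 1.73, whereas Gabarapl1 at 280 ± 43.7 and Map1lc3a at 143 ± 19.5 did not.

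**Figure D1:**
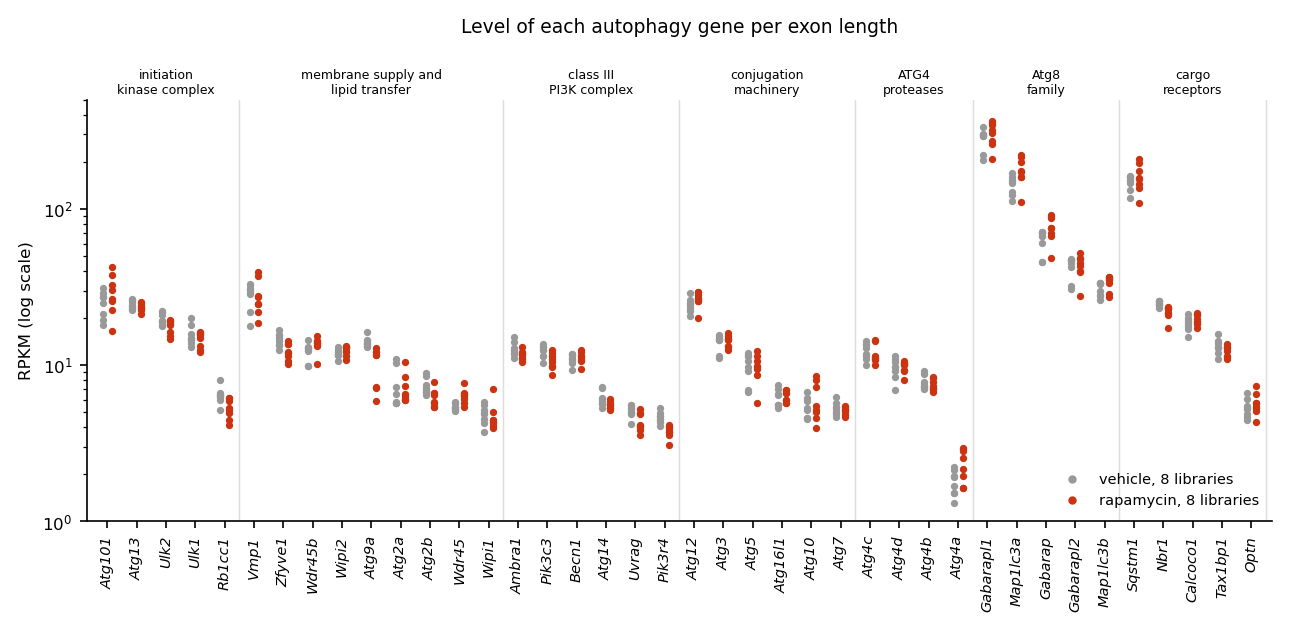
RPKM on a log scale for each of the 40 autophagy genes, grouped by role and ordered by mean level, with 1 point per library (grey, vehicle, 8 libraries; red, rapamycin, 8 libraries). Gabarapl1, Map1lc3a and Sqstm1 had means above 100 RPKM, and Atg4a was lowest at a mean of 2.06.

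Rapamycin was compared with vehicle over both sexes, with sex and batch as terms, to ask whether the messengers of the machinery shifted. Of the 40 genes 7 passed the test (adjusted p under 0.05 edgeR, quasi-likelihood test, Benjamini-Hochberg over all 16553 genes), which is 17.5% beside 13.3% of all genes. The rises were Map1lc3a and Gabarap of the Atg8 family and Wdr45, a lipid-binding adaptor (3 genes, beside 6.46% of all genes). Atg9a, Atg2b, Zfyve1 and Pik3r4, of membrane supply and of the PI3K complex, fell (4 genes, beside 6.86% of all genes). No gene of the 40 also reached the fold change of 1.5 given in the study's methods (0 of 40, beside 2.26% of all genes). The study's figure legends give a smaller cutoff on the log2 scale, which Atg9a passed. The share of all genes beyond that cutoff was not counted. The log2 fold changes of the 40 ran from -0.55 to 0.35. Their median was 0.02, as for all genes, 21 were positive and 19 negative, and the median size was 0.15 against 0.18. The share called lay near the background.

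The Atg8 family had a positive log2 fold change in all 5 members, of which 2 passed, with a median of 0.17, though Gabarapl2 turned negative with either covariate or the length offsets described further on. Map1lc3a (chr2:155276297-155278073, plus strand, GRCm38) encodes LC3A. In the order of replicates 1 to 4, and 1, 2, 4 and 5 for female rapamycin, its CPM were 177, 172, 152 and 133 in female vehicle and 262, 236, 131 and 188 in female rapamycin libraries. In males they were 181, 188, 200 and 145 with vehicle and 203, 253, 207 and 187 with rapamycin. The treatments overlapped in both sexes, and the highest 3 values belonged to female rapamycin 1 and 2 and male rapamycin 2. The log2 fold change was 0.35 ± 0.087 (SE; adjusted p = 0.0196), a level 1.28 times that with vehicle.

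Gabarap (chr11:69991143-69994951, plus strand) encodes the founding GABARAP protein, which acts late in autophagosome closure. Its CPM were 129, 131, 130 and 84.5 in female vehicle libraries, and 166, 160, 89.4 and 129 in female rapamycin libraries. Male vehicle libraries had 124, 112, 124 and 84.9, all below the 140, 168, 125 and 139 of male rapamycin libraries, while the female groups overlapped. Its log2 fold change was 0.35 ± 0.092 (adjusted p = 0.024; 0.0625 with the replicate number as a block in place of batch). In vehicle libraries of either sex the lowest value was that of batch 2.

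The other 3 members did not pass. Map1lc3b CPM were 224, 250, 208 and 195 in female vehicle and 206, 277, 216 and 266 in female rapamycin libraries. Male values were 251, 252, 251 and 213 with vehicle and 253, 273, 266 and 277 with rapamycin. The male groups did not overlap (highest vehicle value 252, lowest rapamycin value 253), and the log2 fold change over both sexes was 0.16 ± 0.077 (adjusted p = 0.181).

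Gabarapl1, the most abundant member of the machinery, had 610, 589, 676 and 417 CPM in female vehicle libraries and 694, 712, 418 and 546 in female rapamycin libraries. In males it had 587, 597, 595 and 443 with vehicle and 612, 736, 641 and 523 with rapamycin, and the groups overlapped in both sexes. It gave 0.17 ± 0.070 (adjusted p = 0.105), and exons of another annotated gene cover 28.3% of its exon length. Gabarapl2 gave 0.09 ± 0.077, and its processed pseudogenes Gm3724, Gm5829 and Gm6051, up to 99.4% identical over 349 to 352 bases, make its counts less certain, since pairs matching several places were left out. In the summed RPKM of the 40 genes the Atg8 family took 50% ± 2.53 (SD, n = 8) with vehicle and 52.9% ± 2.74 with rapamycin.

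Genes of membrane supply and lipid transfer (9 genes) moved both ways, with 1 rise and 3 falls. Atg9a (chr1:75180860-75192196, minus strand) encodes the lipid scramblase whose vesicles seed the autophagosome, and had the largest change of all 40. Its CPM were 82.3, 78.3, 74.8 and 80.2 in female vehicle and 33.9, 40.9, 67.1 and 70.5 in female rapamycin libraries. Male vehicle libraries had 78.8, 83.8, 75.8 and 93.2, and male rapamycin libraries 67.1, 41.6, 74.3 and 69.9. No rapamycin library reached a vehicle library, the only such case among the 40 genes (beside 0.489% of all genes), though by a narrow margin of 74.3 to 74.8. The lowest 3 values were again those of female rapamycin 1 and 2 and male rapamycin 2. The fall was 0.55 ± 0.126 on the log2 scale (adjusted p = 0.0159), to 0.685 times vehicle. Exons of Ankzf1 and Gm29253 cover 32.6% of its exon length, and counting without strand leaves out pairs in that stretch.

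Atg2b (chr12:105613539-105685241, minus strand) encodes one of the bridge proteins through which lipid flows from the endoplasmic reticulum. It had 70.9, 72.5, 75.8 and 87.1 CPM in female vehicle and 58.7, 55.0, 78.9 and 59.3 in female rapamycin libraries. The male values were 68.8, 66.1, 68.8 and 91.1 with vehicle and 67.1, 54.8, 65.2 and 67.9 with rapamycin. Treatments overlapped in both sexes, and the change was -0.27 ± 0.072 (adjusted p = 0.023). Its paralog Atg2a gave -0.07 ± 0.084 (adjusted p = 0.586).

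Zfyve1 (chr12:83546941-83597147, minus strand) encodes DFCP1, which marks the omegasome where autophagosomes arise. Female vehicle libraries had 57.6, 54.7, 52.0 and 48.9 CPM, all above the 39.4, 40.9, 46.3 and 46.7 of female rapamycin libraries. Male vehicle libraries had 60.5, 60.2, 65.1 and 52.0, and male rapamycin libraries 53.0, 44.5, 53.0 and 55.1, which overlapped. The change was -0.25 ± 0.073 (adjusted p = 0.0311; 0.0503 with the replicate block). Between batch 1 libraries alone the difference in mean log2 CPM was -0.34, and between batch 2 libraries -0.04.

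Wdr45 (chrX:7714333-7728206, plus strand) encodes WIPI4, the adaptor that holds ATG2 and whose loss causes neurodegeneration with brain iron accumulation. It had 17.1, 18, 19 and 17.4 CPM in female vehicle and 21.6, 21.9, 21.4 and 20.9 in female rapamycin libraries, without overlap. Male values were 19.3, 16.8, 17.8 and 17.8 with vehicle and 18.9, 25.4, 20.3 and 17.8 with rapamycin. The rise was 0.24 ± 0.076 (adjusted p = 0.0435; 0.0868 with the replicate block). Other annotated exons cover 24.7% of its exon length. The related adaptor gene Wdr45b gave 0.19 ± 0.073 (adjusted p = 0.095), Wipi2 0.06, Wipi1 -0.07 and Vmp1, a scramblase of the endoplasmic reticulum, 0.05.

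In the class III PI3K complex 5 of 6 genes had negative log2 fold changes (median -0.15), and 1 passed. Pik3r4 (chr9:105642978-105687657, plus strand) encodes VPS15, the regulatory subunit that holds the lipid kinase VPS34. It had 46.0, 39.4, 42.8 and 45.7 CPM in female vehicle and 29.9, 34.4, 38.9 and 36.1 in female rapamycin libraries. With 43.8, 48.0, 41.7 and 51.2 in male vehicle and 35.8, 37.2, 40.2 and 38.8 in male rapamycin libraries, the treatments were apart within each sex. The fall of 0.32 ± 0.064 had the smallest adjusted p of the 40 (0.0119). It was similar in the batches, with differences of -0.30 in batch 1 and -0.35 in batch 2.

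Beclin 1, encoded by Becn1 (chr11:101285952-101302286, minus strand), was the 1 member of the complex with a positive value. Its CPM were 81.9, 77.3, 83.4 and 72.6 in female vehicle and 85.7, 79.3, 66.8 and 81.4 in female rapamycin libraries. In males they were 74.8, 83.4, 78.2 and 66.2 with vehicle and 75.1, 81.4, 88.6 and 76.1 with rapamycin. All groups overlapped, and the change was 0.06 ± 0.062 with a 95% interval of -0.06 to 0.18 (adjusted p = 0.538). Exons of Cntd1 cover 43.9% of its exon length, the largest such overlap of the 40. Uvrag, of the late endosomal form of the complex, gave -0.21 (adjusted p = 0.0555), Pik3c3, the kinase itself, -0.17, Ambra1 -0.14 and Atg14, of the autophagy-specific form, -0.13.

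The initiation kinase complex, the direct target of mTORC1, had negative values in 4 of 5 genes and 0 that passed. Ulk1 (chr5:110784488-110810097, minus strand), its kinase, had 89.7, 93.5, 85.2 and 117 CPM in female vehicle and 85.9, 79.0, 106 and 103 in female rapamycin libraries. The male libraries had 103, 97.3, 96.2 and 130 with vehicle and 97.5, 81.4, 101 and 105 with rapamycin. Groups overlapped, with the vehicle library of batch 2 highest in each sex, and the change was -0.13 ± 0.061 (adjusted p = 0.151). Rb1cc1 gave -0.28 (adjusted p = 0.0672), Ulk2 -0.19 (0.0771), Atg13 -0.06 (0.545) and Atg101, whose exons are the shortest of the 5, 0.30 (0.0823).

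Among the conjugation genes (0 of 6 passed) log2 fold changes ran from -0.03 for Atg7 to 0.20 for Atg10, an E2-like enzyme, and among the ATG4 proteases (0 of 4) from -0.06 for Atg4c to 0.34 for Atg4a. The 4 genes with CACGTG in their windows had 0.06 (Atg3), 0.08 (Atg5), -0.03 (Atg7) and -0.13 (Atg14), and 0 of them passed. Atg4a has a copy, Atg4a-ps, that is 99.3% identical over 2115 bases, and its 5.47 CPM are uncertain for that reason. Of the cargo receptors 0 of 5 passed. Sqstm1 (chr11:50199366-50210827, minus strand) had 544, 535, 503 and 392 CPM in female vehicle and 587, 663, 365 and 484 in female rapamycin libraries. In males its values were 514, 534, 492 and 444 with vehicle and 520, 703, 531 and 456 with rapamycin, and the groups overlapped in both sexes. Its change was 0.16 ± 0.081, with a 95% interval of 0.00 to 0.32 (adjusted p = 0.192), and -0.12 with the exon length slope as a covariate. p62 protein, which autophagy degrades, was not measured in these files. Nbr1 gave -0.20 (adjusted p = 0.0532), Tax1bp1 -0.06, Calcoco1 0.07 and Optn 0.11.

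**Figure D2:**
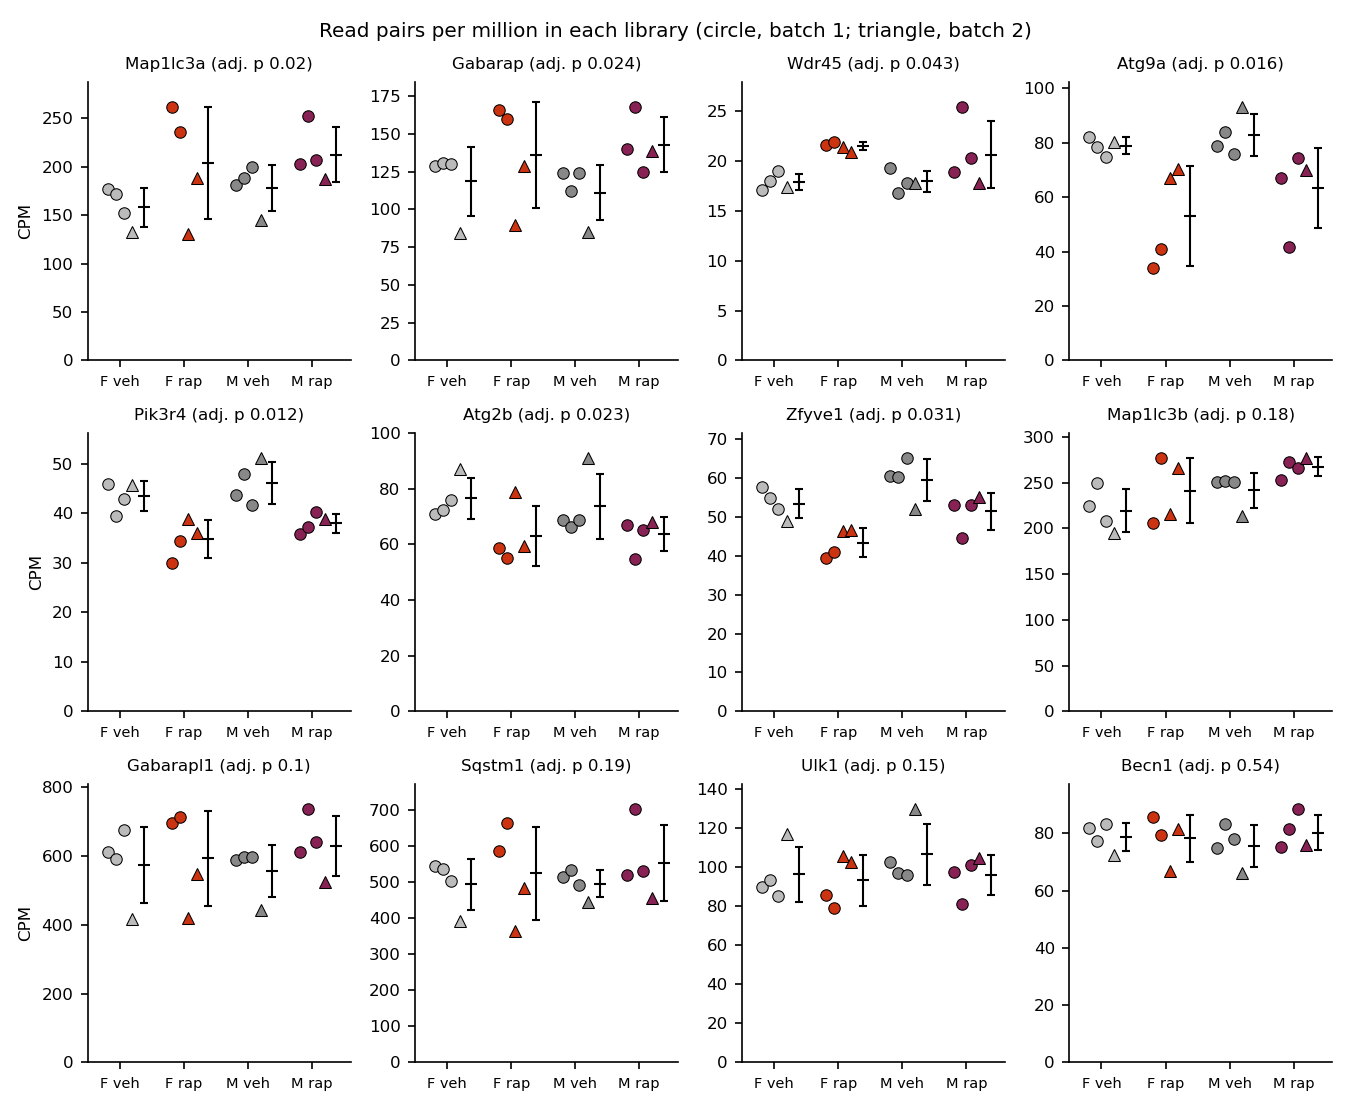
CPM of the 7 genes that passed the test for rapamycin and of Map1lc3b, Gabarapl1, Sqstm1, Ulk1 and Becn1 in every library, by group (F, female; M, male; veh, vehicle; rap, rapamycin; 4 libraries each), with group means and SD as bars. Circles are batch 1 and triangles batch 2, and Atg9a is the panel in which all rapamycin libraries lay below all vehicle libraries.

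By DESeq2's Wald test 11 of the 40 passed (beside 18.9% of all genes by that test), the same 7 with Ulk2, Rb1cc1, Uvrag and Nbr1, all lower. Without a term for batch 0 passed, beside 0.858% of all genes. In that fit 13 of the 40 had an unadjusted p under 0.05, for which no share of all genes was counted. Without the library labelled male rapamycin 4 the same 7 passed, beside 9.44% of all genes. Leaving out each of the 16 libraries in turn never ended the call of Atg9a or Pik3r4, ended that of Map1lc3a in 1 fit (female rapamycin 1), Atg2b in 4, Gabarap in 5, Zfyve1 in 8 and Wdr45 in 12. The count was 2 without female rapamycin 1 (beside 4.26% of all genes) and 3 without female rapamycin 2 (5.15%) or male rapamycin 2 (5.85%). It was 4 without male vehicle 4 (7.34%) and 12 without female rapamycin 4 (20%). The share of all genes called was lowest and highest in the same fits as the count.

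Within each sex 0 of the 40 passed by edgeR. In females edgeR called 0.0121% of all genes, which is 2 genes. There 11 of the 40 had an unadjusted p under 0.05, beside 3818 of all 16553 genes. DESeq2 called 5 (beside 9.08% of all genes by that test). Atg9a had the largest value, -0.72 ± 0.178 with the smallest adjusted p of 0.0694, then Atg4a at 0.57 ± 0.200, Map1lc3a at 0.45 ± 0.123 and Pik3r4 at -0.36 ± 0.094. In males, where edgeR called 0% of all genes, 5 had an unadjusted p under 0.05 (beside 1990 of all genes), and DESeq2 called 0. The male values ran from -0.39 for Atg9a to 0.39 for Gabarap, with a smallest adjusted p of 0.363 by edgeR. Without the library labelled male rapamycin 4 the female comparison called 1 of the 40, beside 349 of all genes (2.07%). The male comparison called 0, beside 0% of all genes. In CPM 6 genes did not overlap between treatments in females (Atg4a, Atg9a, Pik3r4, Wdr45, Nbr1 and Zfyve1, beside 5.78% of all genes). In males 6 did not either (Atg9a, Pik3r4, Wdr45b, Map1lc3b, Gabarap and Nbr1, beside 6.13% of all genes).

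The difference between the sexes in the response was tested as an interaction of sex and treatment. Of the 40 genes 0 passed (beside 0% of all genes), and 0 by DESeq2. At an unadjusted p under 0.05 there were 0, beside 360 of all genes. The largest was Atg4a at 0.47 ± 0.282, female minus male, and the next Atg9a at -0.33 ± 0.246. Male against female at equal treatment gave 0 of 40 (beside 0.0302% of all genes), and 0 by DESeq2, with log2 fold changes from -0.22 to 0.22. At an unadjusted p under 0.05 there were 3, beside 992 of all genes.

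**Figure D3:**
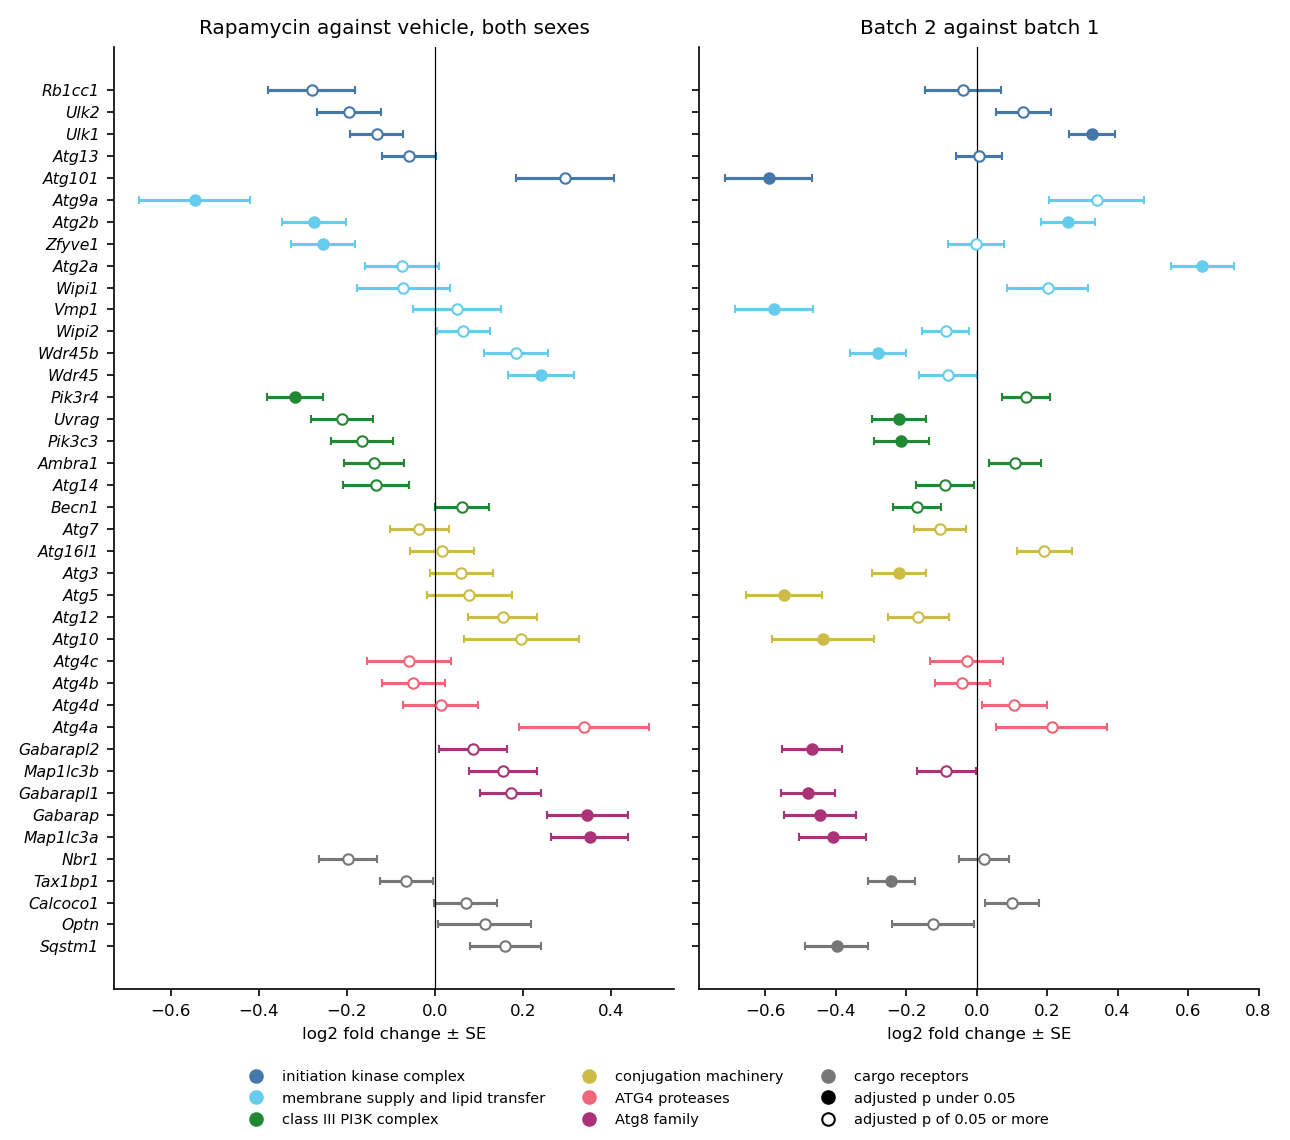
Log2 fold change with its SE for each of the 40 genes by role, for rapamycin against vehicle over both sexes (left) and batch 2 against batch 1 (right), with filled points where the adjusted p was under 0.05. All 5 Atg8 family points lie right of 0 on the left panel and left of 0 on the right panel.

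Batch moved more of the machinery than treatment did. Between batch 2 and batch 1, 17 of the 40 genes passed (42.5%, beside 35.5% of all genes), of which 3 were higher (beside 19.1%) and 14 lower (beside 16.5%), and 2 reached a fold change of 1.5 (beside 12.9%). With library size as the only scaling the split was 6 higher and 11 lower. The Atg8 family was lower in batch 2 in 4 of 5 members, from -0.41 for Map1lc3a to -0.48 for Gabarapl1, and Map1lc3b, whose exons are 7517 bases long, gave -0.09 and did not pass. Sqstm1 fell by 0.40, Vmp1 by 0.57, Atg5, which the conjugation step needs, by 0.55, and Atg101 by 0.59. The higher genes were Atg2a (0.64), Ulk1 (0.33) and Atg2b (0.26). Without the library labelled male rapamycin 4 the count was 16.

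**Figure D4:**
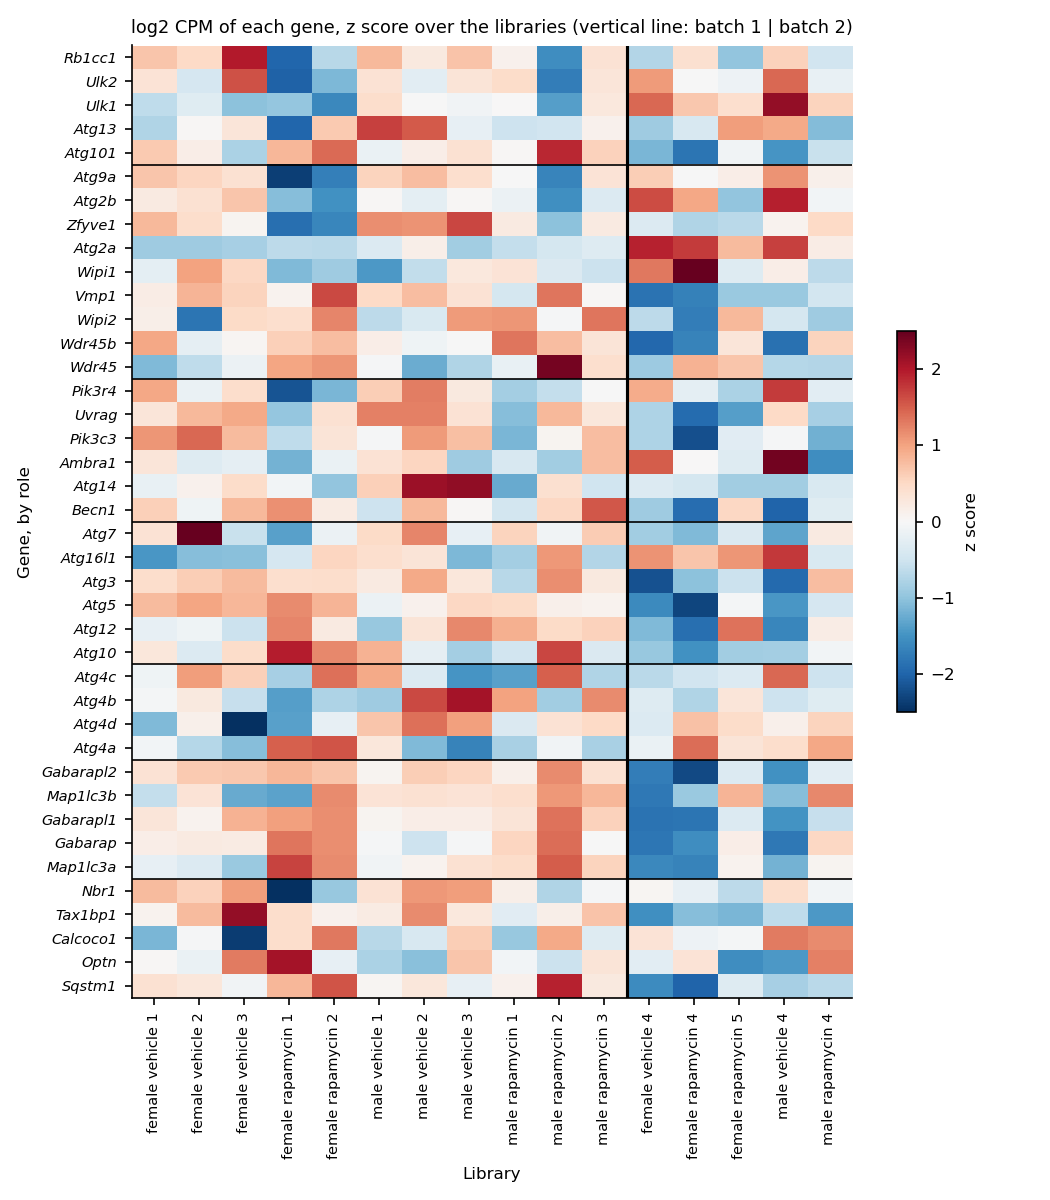
Log2 CPM of the 40 genes, each as a z score over the 16 libraries, with genes by role (horizontal lines) and libraries by batch and group (vertical line between batches). Most of the Atg8 family is low (blue) in 3 batch 2 libraries (replicate 4 of both vehicle groups and of female rapamycin) and high (red) in female rapamycin 1 and 2 and male rapamycin 2.

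Log2 fold changes of the 40 genes followed exon length. Across genes, which are not independent replicates and share the same 16 libraries, Spearman's rho between the rapamycin change and exon length was -0.66 over the 40 and -0.43 over all genes, and for the batch change 0.51 and 0.30. Of the 20 genes with shorter exons 16 had positive values, and of the 20 with longer exons 5 did. The 3 that rose had a median exon length of 1844 bases and the 4 that fell one of 7711. Over all genes split into 10 bins of exon length, the bin of the shortest had a median of 0.27, with 19.1% called higher, and that of the longest a median of -0.20, with 25.3% called lower. Relative to the median of their own bin, the 4 genes that fell were at -0.48 (Atg9a), -0.25 (Zfyve1), -0.12 (Pik3r4) and -0.07 (Atg2b). The 3 that rose were at 0.21 (Wdr45), 0.16 (Gabarap) and 0.08 (Map1lc3a).

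**Figure D5:**
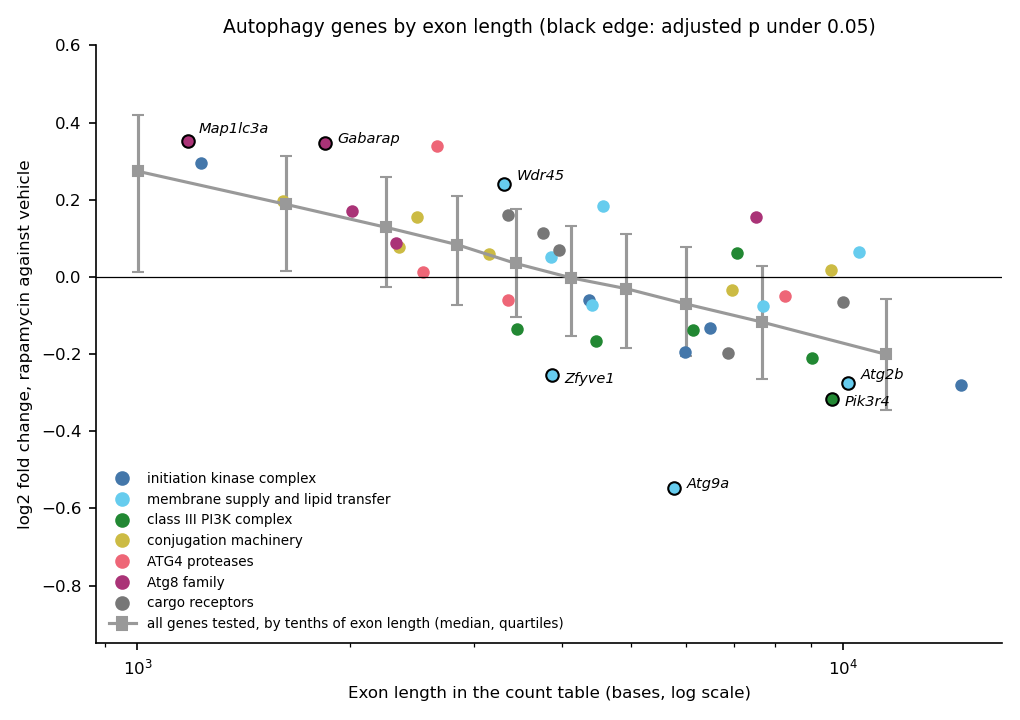
Log2 fold change for rapamycin against exon length in bases (log scale) for the 40 genes, coloured by role and with a black edge where the adjusted p was under 0.05. Grey squares are the medians of all tested genes in 10 bins of exon length, with bars for the quartiles, and fall from 0.27 to -0.20, and Atg9a lies at -0.55, below the quartiles of its bin.

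The same trend was seen within libraries. The slope of log2 CPM on log2 exon length, relative to the mean of all libraries, was lower with rapamycin than with vehicle, by -0.10 in batch 1 and -0.09 in batch 2. It was lowest in the 3 libraries with a mitochondrial share above 6%, at -0.13 to -0.12, against -0.03 to 0.10 in the other 13. For 12 of the 40 genes these 3 libraries lay outside the range of all 13 others (beside 16.3% of all genes), 7 above it and 5 below. They were above for Map1lc3a, Gabarap, Gabarapl1, Sqstm1, Wdr45, Atg10 and Atg101, and below for Atg9a, Atg2b, Zfyve1, Ulk2 and Nbr1. Atg9a had 33.9 to 41.6 CPM there, 67.1 to 74.3 in the other 5 rapamycin libraries and 74.8 to 93.2 with vehicle.

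With these 3 libraries left out 0 of the 40 passed, beside 0.0058% of all genes (6 of the 40 at an unadjusted p under 0.05). Atg9a gave -0.25 (adjusted p = 0.193), Pik3r4 -0.29 (0.169), Gabarap 0.27 (0.366) and Map1lc3a 0.20 (0.395), all by edgeR and in a smaller set of libraries. With the exon length slope as a covariate 0 of the 40 and 0 of all genes passed (3 of the 40 at an unadjusted p under 0.05), and with the mitochondrial share 0 and 0 (2 of the 40). No share of all genes was counted at an unadjusted p for the covariates or the left-out libraries, so these counts have no background beside them. Once the trend with exon length was removed from each library by offsets 3 of the 40 passed (beside 5% of all genes), Wipi2 higher (0.26) and Atg9a (-0.48) and Zfyve1 (-0.26) lower.

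Related genes of the pathway from 5 lists (64 genes, 63 tested) gave 5 that were higher and 7 that were lower, which is 19% beside the 13.3% of all genes, with a median of 0.00. Among receptors of mitophagy and ER-phagy 4 of 16 were higher and 0 lower, led by Pink1, the kinase that marks damaged mitochondria (409 ± 44.2 to 499 ± 81.8 CPM, SD, n = 8 each; 0.32, adjusted p = 0.0201), and Fkbp8 (328 ± 33.1 to 391 ± 63.7 CPM; 0.29, adjusted p = 0.0294). Of the early steps and regulators 1 of 14 was higher and 3 lower, with Epg5, a tether of autophagosomes to lysosomes (64.6 ± 10.5 to 47.8 ± 12.1 CPM; -0.50, adjusted p = 0.0128), and Atg16l2, a paralog of Atg16l1 (15.2 ± 4.37 to 20.1 ± 4.82 CPM; 0.34, adjusted p = 0.0349). Of the remaining selective receptors 0 of 5 were higher and 2 lower, Wdfy3, of aggregate clearance (-0.56, adjusted p = 0.0133), and Ncoa4, of ferritin (-0.38, adjusted p = 0.0235). Genes of fusion with lysosomes gave 0 higher and 1 lower of 18, Vps33a (-0.31, adjusted p = 0.023), with Vps39 next (-0.16, adjusted p = 0.0583). Among 10 transcription factors of autophagy genes 0 were higher, and Foxo3 gave -0.27 (adjusted p = 0.0841).

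Fewer cells of a type and less RNA per cell cannot be told apart in whole cortex, so cell type markers were read beside these values, with 6 genes per list and 0 at 0 in every library. Lists of GABAergic neurons, astrocytes, oligodendrocytes, microglia, endothelium and blood had 0 genes called, with medians from -0.18 to 0.72. Glutamatergic neuron markers summed to 4794 to 7793 CPM over the libraries, with a median log2 fold change of -0.05. Plaque-associated microglia markers had a median of -0.46 with 0 of 6 called, summing to 87.2 to 209 CPM with vehicle and 57.5 to 165 CPM with rapamycin. Choroid plexus markers had a median of -1.62 with 2 of 6 lower, Kcnj13 and Aqp1, and summed to at most 1928 CPM in male vehicle libraries, the value of male vehicle 4, and to at most 321 CPM in the other 3 groups. Without male vehicle 4 the count of autophagy genes that passed was 4 (Map1lc3a, Atg9a, Pik3r4 and Zfyve1), beside 7.34% of all genes. The part of these cell type differences in the values of the 40 genes was not tested.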

How the data were processed

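Cortical poly(A) RNA of 16 libraries was measured by paired-end sequencing. The authors deposited raw read pair counts per gene, which they made with FastQC 0.11.9, Trimmomatic 0.39, HISAT2 2.2.1 on GRCm38 and featureCounts 2.0.3, counting over exons without strand and leaving out pairs that matched several genes or places. Trim Galore is also named in the submitters' processing notes. All columns of the count table were matched to samples by name (0 left over), and tables repeating these counts by group were not used.

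Genes were filtered with filterByExpr (minimum count 10), which left 16553, scaled by TMM and tested with edgeR 4.0.16 in R 4.3.3 (quasi-likelihood, Benjamini-Hochberg over all 16553). Terms were sex, batch and treatment, or group and batch for results within a sex and for the interaction. SE is the log2 fold change over the root of the F statistic, and 95% intervals are 1.96 SE either way. Folds are given on the log2 scale with edgeR's prior count. CPM used TMM library sizes, and RPKM divided CPM by the summed exon length. DESeq2 1.42.0, other scalings, filters, covariates and left-out libraries were the alternatives. Exon copies were searched with blastn 2.17.0, and the fits were tested on simulated counts, with 50 genes changed at each size. Over both sexes 5 of 50 were recovered at a log2 change of 0.25, 13 at 0.35, 28 at 0.5 and 49 at 1. Within females 1, 2, 8 and 38 were recovered at these sizes, and within males 2, 1, 14 and 40. Small changes within a sex would thus mostly go uncalled. Over both sexes 101 genes were called in the simulation, where all other treatment effects had been removed, and 2205 in the data. The Benjamini-Hochberg cutoff was therefore stricter in the simulation, and genes were drawn independently. Its rates do not describe the fit over both sexes. Libraries of a group were checked for duplicates by chi-square, and none agreed within sampling noise. Depth of 16393501 to 20593089 read pairs limits precision through counting error only for the lowest genes.

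Groups came from the sample labels. Deviations of same-numbered libraries from their group means correlated at 0.435, 0.447 and 0.675 in females and at -0.157, 0.113, 0.143 and 0.351 in males. Same-numbered libraries also share a batch, which enters these values. Within batch 1 alone the correlations were 0.26 and 0.298 in females and -0.238, 0.0434 and 0.144 in males. Whether the numbers pair the libraries therefore cannot be told from this check. The labels do not say what same-numbered libraries share. The genes and lists were chosen with earlier results of these data known. Values in every library are given for the genes that passed over both sexes and for Map1lc3b, Gabarapl1, Sqstm1, Ulk1 and Becn1, and from each list of related genes the 2 with the smallest adjusted p are named. Results that need certain items are not reported here.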

Additional observations from a re-analysis of the deposited data

Results flagged for a closer look

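In each group of 4 libraries, a gene was picked out where 1 library lay far from the other 3, by the gap to its neighbour as a share of the group's range (above Dixon's 95% critical value for 4 samples). Chance alone picks about 1 in 20 where libraries differ only at random and the groups are independent. Neither held here, since each group mixed batches and all genes shared the same libraries. Of 160 groups 14 were picked out.

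Of these, 6 were female vehicle 4, of batch 2. It was high for Atg2a, with 83.9 CPM against 43.9 to 44.6 (gap share 0.983), and for Atg16l1, with 67.3 against 51.5 to 53.8 (0.859). It was low for Atg3, with 35.2 CPM against 46.6 to 48.4 (0.866), for Atg5, with 15.8 against 26.8 to 27.9 (0.908), for Gabarap, with 84.5 against 129 to 131 (0.959), and for Gabarapl2, with 71.2 against 104 to 110 (0.84).

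Male vehicle 4, also of batch 2, was high for Atg2b, with 91.1 CPM against 66.1 to 68.8 (0.891). It was low for Map1lc3b, with 213 CPM against 251 to 252 (0.979), for Gabarapl1, with 443 against 587 to 597 (0.936), and for Wdr45b, with 45.4 against 57.5 to 59.7 (0.851).

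The others were Wipi1 in female rapamycin 4, with 31.1 CPM against 17.5 to 19.8 (0.831), Atg4a in female rapamycin 5, with 5.76 against 7.52 to 7.83 (0.851), Atg10 in male rapamycin 2, with 12.9 against 8.07 to 8.8 (0.847), and Wipi2 in male vehicle 3, with 137 against 122 to 124 (0.849).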

How the results depend on the processing

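Percentages in brackets are of all genes called in the same fit. For rapamycin over both sexes, where 7 of the 40 genes passed (13.3%), the count was 11 by DESeq2 (18.9%). It was 4 within batch 1 alone (7.45%) and 3 with exon length offsets (5%). It was 0 without a batch term (0.858%), with the exon length slope (0%) or with the mitochondrial share (0%) as a covariate. It was 0 with the 3 libraries above a mitochondrial share of 6% left out (0.0058%), an alternative chosen after seeing the data. Leaving out 1 library at a time gave 2 to 12 (4.26 to 20%). Other scalings, a robust prior and no filter gave 6 to 8 (8.68 to 14.8%). In females, where 0 passed (0.0121%), DESeq2 gave 5 (9.08%), batch 1 alone 4 (7.75%) and no filter 2 (5.55%). Leaving out 1 library gave 0 to 5 in females (0.00592 to 12.6%). Males, the interaction and male against female gave 0 under every alternative run. For batch, where 17 passed (35.5%), the exon length slope as a covariate gave 7 (12.6%) and the mitochondrial share 4 (10.3%). Leaving out 1 library gave 12 (25.4%, without female vehicle 4) to 19 (36.3%, without male rapamycin 1). For the 7 genes that passed, no direction reversed, and of their values under these alternatives 132 kept their side of the threshold and 71 did not. Over all 40 genes the sign changed in 16 with the exon length slope (Sqstm1 to -0.12, Atg101 to -0.13), 8 with the mitochondrial share, 7 with offsets, 7 without the 3 libraries, 3 in batch 1 alone, 1 without a batch term and 0 by DESeq2. The median of the 40 went from 0.02 to -0.05 with the exon length slope. Apart from the covariates and the libraries named, the cause was not tested.

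With the replicate block in place of batch 4 of the 40 passed over both sexes (Map1lc3a, Atg2b, Atg9a and Pik3r4, beside 7.84% of all genes), where Gabarap, Zfyve1 and Wdr45 lost their calls. Within either sex, for the interaction and for male against female the block changed no call.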
